A study of Homo sapiens and Mus musculus with 66 samples.

Results

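FHIT, PTPRG, NAALADL2, LRP1B, IMMP2L, CTNNA3, DLG2, WWOX and MACROD2 are very long human genes that lie at common fragile sites. They were taken by name, 9 of the 20136 protein-coding genes annotated on chromosomes 1 to 22, X and Y, and each gene body was placed against the regions that the authors called at or near the nuclear lamina (NL). All 9 were found in the GENCODE annotation and all 9 are described. The positions below are in hg19.

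The regions come from lamin-B1 cTSA-seq, in which a lamin-B1 antibody directs tyramide labelling of the surrounding chromatin with biotin and the labelled chromatin is pulled down with streptavidin (StrePD) and sequenced beside its input. Of the 66 libraries in the series, those of 2 established cell lines are behind the lists used here. K562 is a human leukemia line, assayed in bulk with 2 input and 2 StrePD libraries. HCT116 is a human colorectal cancer line, assayed in bulk (2 input and 2 StrePD libraries), from 50000 cells and from 200000 cells (1 input and 2 StrePD libraries each) and from 1000000 cells (1 input and 1 StrePD library). HCT116 cells were also sorted by DNA content into G1, S and G2 from unsynchronised cultures. Others were sorted into G1 at 90 min and 180 min after release from a nocodazole arrest (90m G1 and 180m G1). The arrest lasted 16 h per the labels, and the methods give a longer time. Each of these 5 stages had 2 input and 2 StrePD libraries. No cell carried a transgene or a deletion named in the labels, and every culture is 1 cancer line whose copy number at these genes was not used here. The lists hold region borders only, 1 list per condition, so they give no depth, no spread between replicates and no test, and a difference between lists is a description of those lists. A border can lie only on the edge of a 100 kb window.

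Common fragile sites are stretches of chromosome that gap or break in metaphase when DNA replication is slowed. Many coincide with genes of extreme length, which replicate late and hold few replication origins, and their deletion is frequent in tumours. Chromatin at the NL (lamina-associated domains, LADs) is mostly late replicating, poor in genes and low in transcription. A gene of over 1 Mb can span a LAD border, so that its 5′ and 3′ parts can lie in different surroundings.

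The 9 gene bodies ranged from 736 kb for PTPRG to 2173 kb for DLG2, and DLG2, MACROD2, LRP1B and CTNNA3 ranked 5, 7, 9 and 10 in length among all protein-coding genes. Exons of the canonical transcript made up 0.201% of WWOX and 1.27% of PTPRG, the lowest and highest of the 9. GC content was between 34.8% in LRP1B and 42.6% in WWOX, with a median of 37%, beside a median of 38.3% over the other 315 protein-coding genes of at least 500 kb. Runs of alternating A and T, which are known for slowing replication forks at fragile sites, reached 42 bases in IMMP2L and 74 bases in WWOX at their longest, with a median of 50 bases over the 9 genes. The median longest run over the other 315 long genes was 47 bases and their maximum was 73. The longest runs of FHIT and WWOX are shown with 20 bases on each side, read 5′ to 3′ on the strand of the gene, with the alternating run in capitals, because these are the best known fragile-site genes of the 9 and their called parts shifted along the gene between lists. The FHIT run is at chr3:60404090-60404179 on the minus strand, and the WWOX run is at chr16:78608900-78609013 on the plus strand.
FHIT: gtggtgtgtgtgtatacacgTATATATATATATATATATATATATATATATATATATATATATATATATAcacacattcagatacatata
WWOX: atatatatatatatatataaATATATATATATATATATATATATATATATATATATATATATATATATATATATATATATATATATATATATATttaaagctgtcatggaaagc
The FHIT run lay 833 kb from the gene start, in the part that only the 200k, 180m G1 and S lists of the 12 called. The WWOX run lay 476 kb from the gene start and was inside a region in 10 of the 12 lists, with the 1e6 list and the K562 TSA-seq list as the exceptions.

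Across the lists the 9 genes fell into 3 sets. LRP1B, NAALADL2, CTNNA3 and PTPRG lay inside called regions in K562 and at 0% in all 9 HCT116 lists. DLG2, WWOX and MACROD2 lay inside in both lines. FHIT and IMMP2L were partly inside in K562 and had their highest HCT116 value in the 180m G1 list. FHIT, IMMP2L, CTNNA3 and DLG2 had parts that K562 cTSA-seq left uncalled. None of these parts was in the list of K562 regions that the authors called away from the NL by both TSA-seq and cTSA-seq (0%). The other genes lay wholly inside K562 cTSA-seq regions, so their absence from that list was fixed by how it is built.

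**Figure D1:**
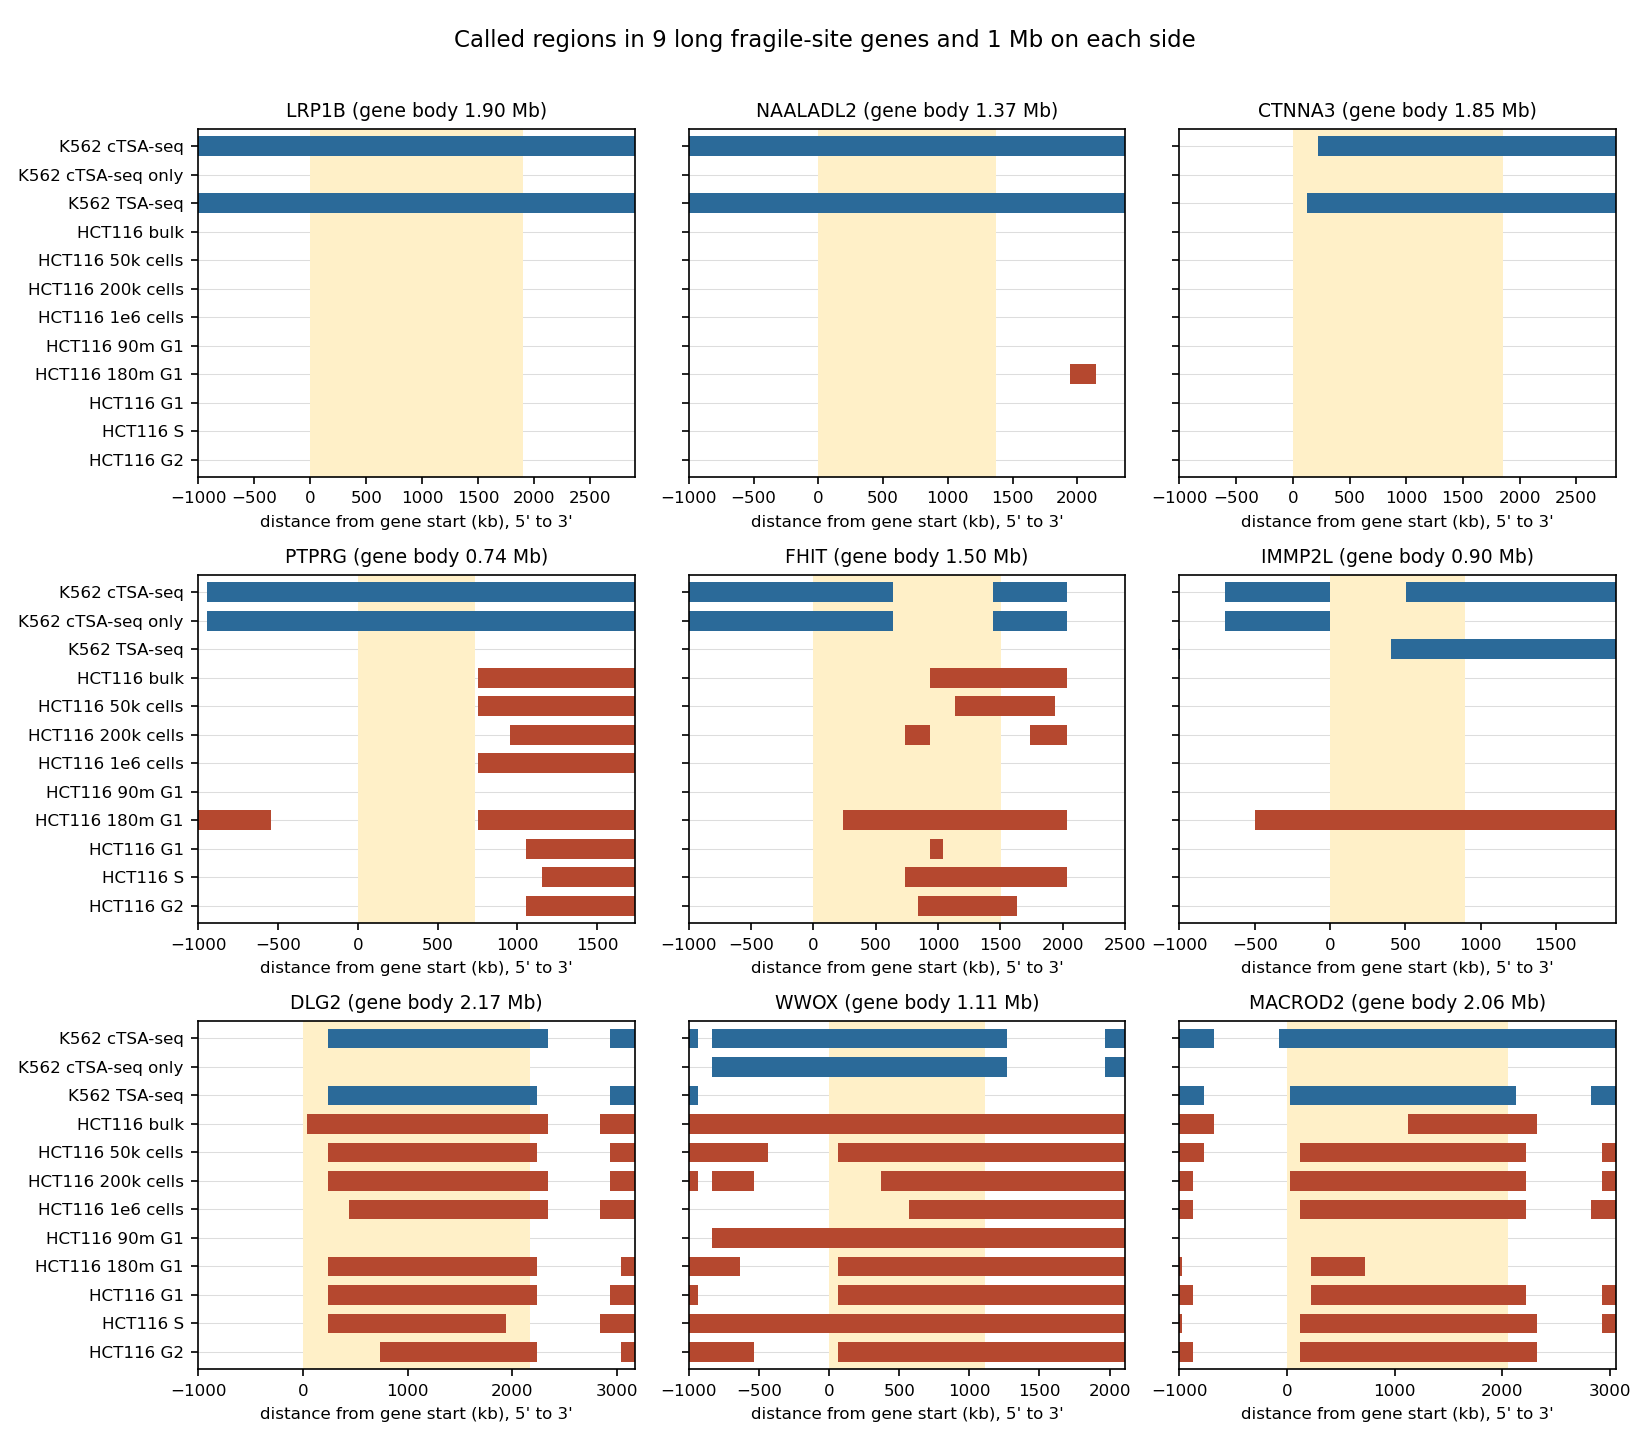
Called regions (bars) in each list, along 9 genes from 1000 kb before the gene start to 1000 kb after the gene end, plotted by distance from the gene start in kb in the direction of transcription, with the gene body shaded, K562 lists in blue and HCT116 lists in red. In LRP1B, NAALADL2, CTNNA3 and PTPRG the shaded gene body holds no red bar, and in DLG2, WWOX and MACROD2 most red bars begin inside the gene and run past its end.

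At least 50% of the gene body was inside for 7 of the 9 genes in K562, where 11.7% of all protein-coding genes and 70.1% of the 324 protein-coding genes of at least 500 kb (the 9 included) met this share. The median percent inside in K562 was 100 over the 9 genes and 93.7 over the other long genes. In HCT116 bulk cells the count was 2 of 9, beside 11.6% of all genes and 47.2% of long genes. It was 3 of 9 from 50000 cells (6.36% of all genes, 46.6% of long genes), 3 of 9 from 200000 cells (5.47% and 43.8%) and 2 of 9 from 1000000 cells (5.23% and 41.7%). Of the sorted stages, 90m G1 had 1 of 9 (17.4% and 23.5%), 180m G1 had 4 of 9 (5.67% and 43.8%), G1 had 3 of 9 (5.21% and 41.4%), S had 4 of 9 (5.8% and 46.6%) and G2 had 3 of 9 (4.87% and 42.3%). Long genes as a class were inside more often than genes at large in every list. The K562 count is near the long-gene share, the 180m G1 and S counts are near it too, and the counts in the other 7 HCT116 lists are under it, with the caution that 1 gene in 9 is a large step. The K562 list covers 1227 Mb and the HCT116 lists cover 526.9 to 834.2 Mb. Within HCT116 the largest list, bulk with 834.2 Mb, had 2 of 9. The S list with 692.5 Mb and the 180m G1 list with 634.4 Mb had 4 each. The smallest, 90m G1 with 526.9 Mb, had 1. The part of list size in the lower HCT116 counts was not tested.

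**Figure D2:**
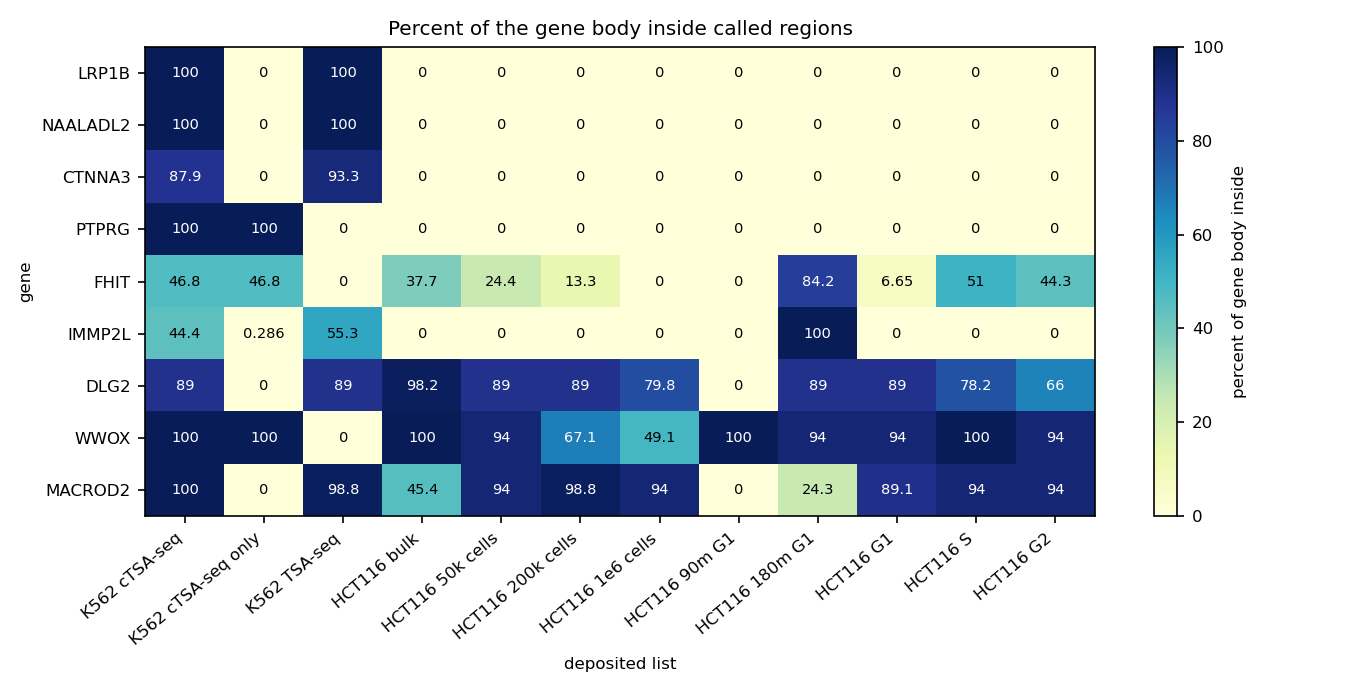
Percent of the gene body inside called regions for 9 genes (rows) in 12 deposited lists (columns), with the value printed in each cell. The first 4 rows are at 0 in every HCT116 column, and the last 3 rows hold most of the high HCT116 values.

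LRP1B, NAALADL2, CTNNA3 and PTPRG made up the first set. The same pattern, at least 50% inside in K562 and 0 in all 9 HCT116 lists, held for 62 of the 324 long genes (19.1%). LRP1B encodes a giant receptor of the low-density lipoprotein receptor family. Its gene body at chr2:140988992-142888585 on the minus strand, with all 91 exons, was 100% inside in K562, within a region of 4.8 Mb that holds 3 whole protein-coding genes, and the K562 TSA-seq region around it was 7.3 Mb long. In HCT116 it was at 0% in every list, as was the 1 Mb on either side. The nearest call in any of the 9 HCT116 lists lay 20.4 Mb before the gene start and 2.19 Mb after its end, so LRP1B sat in a stretch of 24.5 Mb without an HCT116 call.

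CTNNA3 encodes alpha-T-catenin, which ties cadherin junctions to actin. It lies at chr10:67672215-69523395 on the minus strand, was 87.9% inside in K562 and 93.3% in the TSA-seq list, and was at 0% in all 9 HCT116 lists. The first 223 kb with exons 1 to 3 of 18 stayed outside in K562. In HCT116 the surrounding stretch without any call was 17.3 Mb long.

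NAALADL2 encodes a protein of the glutamate carboxypeptidase family. It lies at chr3:174156363-175528336 on the plus strand and was 100% inside in K562 within a region of 3.6 Mb, and 100% inside in the TSA-seq list. Its HCT116 values were 0% in all 9 lists, in a stretch of 6.7 Mb without a call, and the nearest call, 0.572 Mb after its end, was in the 180m G1 list, the only one with a call in the 1 Mb after its end (20%). 

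PTPRG encodes a receptor-type protein tyrosine phosphatase. It lies at chr3:61547243-62283284 on the plus strand and was 100% inside in K562. It differed from the other 3 in that an HCT116 region began 0.0167 Mb after its end, and 58.3% to 98.3% of the following 1 Mb was inside in the 8 HCT116 lists other than 90m G1, which had 0%. The gene body itself held no HCT116 call. It differed also in being at 0% in the K562 TSA-seq list, where LRP1B, NAALADL2 and CTNNA3 were at 93.3% to 100%.

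**Figure D3:**
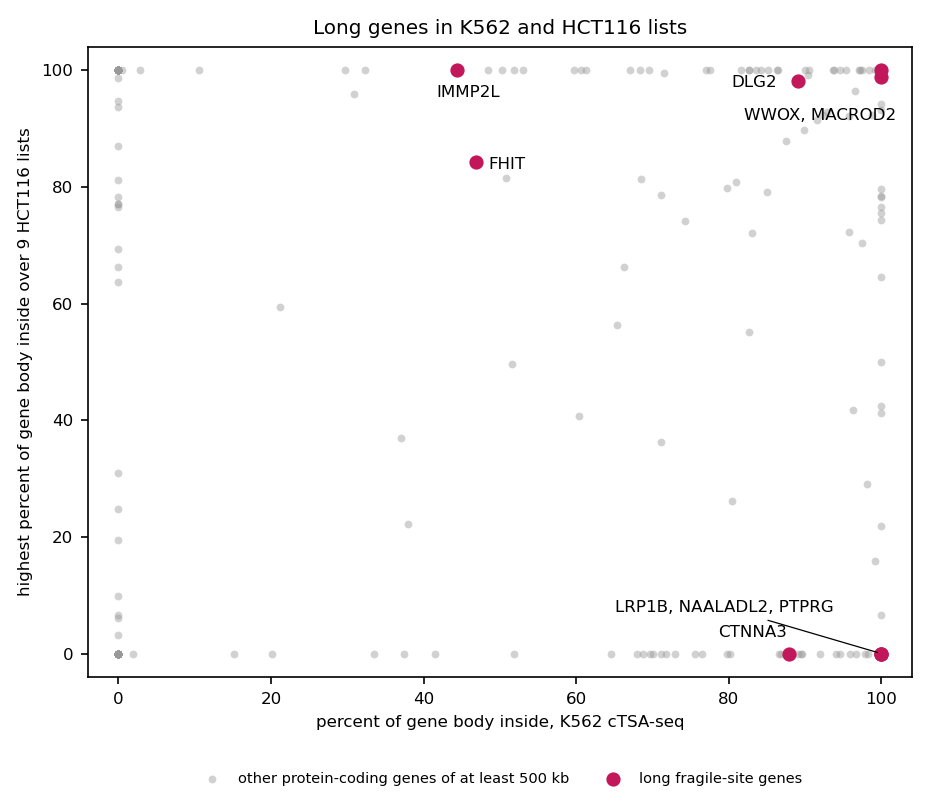
Percent of the gene body inside in K562 cTSA-seq (x axis) against the highest percent over the 9 HCT116 lists (y axis), with 1 point for each of 324 protein-coding genes of at least 500 kb and the 9 fragile-site genes in colour. LRP1B, NAALADL2, PTPRG and CTNNA3 sit at the lower right, where 62 of the long genes have at least 50% in K562 and 0 in HCT116.

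In FHIT the K562 call lay mostly in the 5′ part and the HCT116 calls mostly in the 3′ part. FHIT encodes a diadenosine triphosphate hydrolase and spans the most frequently broken fragile site of lymphocytes. The gene lies at chr3:59733003-61237133 on the minus strand, next to PTPRG. In K562 46.8% of the gene was inside, made up of the first 637 kb and the last 67 kb, which gave 84.7% of the bases 5′ of the midpoint and 8.91% of those 3′ of it. In HCT116 bulk cells 37.7% was inside, none of it 5′ of the midpoint, from 937 kb to the gene end, with exons 6 to 10 of 10. Only the last 67 kb was inside in both, 637.1 kb was inside in K562 alone, 500 kb in HCT116 bulk alone, and 300 kb in neither. The K562 region over the 5′ part ran on for 3.2 Mb through the whole of PTPRG, so the K562 values of these neighbours come from 1 region and are not independent.

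The HCT116 call in FHIT differed from list to list. It began 1137 kb from the start in the 50k list (24.4% of the gene inside) and covered 737 to 937 kb in the 200k list (13.3%), and the 1e6 list had no call (0%). Among the sorted stages 90m G1 had 0% of FHIT inside, 180m G1 had 84.2%, G1 had 6.65%, S had 51% and G2 had 44.3%. The 6.65% in G1 was a single window, 937 to 1037 kb from the start, and the same window was inside in S and G2. At 180m G1 the call ran from 237 kb to beyond the gene end and took in exons 4 to 10. The start of FHIT, outside in all 9 HCT116 lists and inside in K562, is shown from 250 bases before to 50 bases after the canonical transcription start, chr3:61237077-61237376 on the minus strand, with each CG dinucleotide in capitals.
FHIT promoter: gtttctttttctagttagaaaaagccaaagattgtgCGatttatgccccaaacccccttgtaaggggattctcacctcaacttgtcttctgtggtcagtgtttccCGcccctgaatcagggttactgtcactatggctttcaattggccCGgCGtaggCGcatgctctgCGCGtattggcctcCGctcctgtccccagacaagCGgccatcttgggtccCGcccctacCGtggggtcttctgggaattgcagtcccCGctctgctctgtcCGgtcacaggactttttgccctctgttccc
It holds 13 CG dinucleotides in 300 bases, where the median over 19854 protein-coding promoters of that length was 23 and 98.2% held at least 1 (the letters CG, which read the same on both strands).

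IMMP2L encodes a subunit of the inner mitochondrial membrane peptidase, and lies at chr7:110302700-111202573 on the minus strand. In K562 44.4% was inside, from 503 kb to the end, plus 3 kb at the start that belong to a separate region before the gene. The TSA-seq list had 55.3% inside, from 403 kb to the end. In HCT116 it was 100% inside in the 180m G1 list, within a region of 3.4 Mb, and 0% in the other 8 lists. That 180m G1 region covered 49.7% of the 1 Mb before the gene start. Past the gene end it stopped at the same window edge, position 108300001, as the K562 region over the 3′ part.

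DLG2, WWOX and MACROD2 were the genes inside in both lines. DLG2 and WWOX had at least 50% inside in K562 and in the HCT116 bulk, G1, S and G2 lists, as did 31.8% of long genes. MACROD2 had this in 4 of these 5 lists, with 45.4% in bulk.

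DLG2, which encodes a scaffold protein of the postsynaptic density, lies at chr11:83166055-85339379 on the minus strand. It was 89% inside in K562, 89% in the TSA-seq list, and 98.2%, 89%, 89% and 79.8% in HCT116 bulk, 50k, 200k and 1e6 cells. Of the sorted stages, 90m G1 had 0% of DLG2 inside, 180m G1 and G1 had 89% each, S had 78.2% and G2 had 66%. At least 50% in the other 8 HCT116 lists with 0 in 90m G1 was found for 16% of long genes. The border at its 5′ side stood 239 kb from the start in 7 of the 11 lists whose borders were counted, in both lines and with both methods, and at 39 kb in bulk, 439 kb in 1e6 and 739 kb in G2. Exons 1 to 3 of 28 lay outside in every list, and 1 Mb before the start was at 0% in all of them. In S the call also ended 1939 kb from the start, short of exon 19, so that the S list has the end of DLG2 outside. A stretch of 1200 kb (55.2% of the gene) was inside in all 8 HCT116 lists other than 90m G1.

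WWOX, which encodes a WW-domain oxidoreductase, lies at chr16:78133297-79246564 on the plus strand, 11.1 Mb from the end of the chromosome, the nearest to a chromosome end of the 9. It was 100% inside in K562, HCT116 bulk, 90m G1 and S, 94% in the 50k, 180m G1, G1 and G2 lists, 67.1% in the 200k list and 49.1% in the 1e6 list. It was the only one of the 9 above 0 in the 90m G1 list. The 90m G1 region around it ran for 13.1 Mb to the end of chromosome 16 and held 107 whole protein-coding genes, where the region around WWOX held 2 to 14 in the other 8 HCT116 lists. In the 50k, 180m G1, G1 and G2 lists the border stood 67 kb from the start, so that exons 1 to 5 of 9 were outside and exons 6 to 9 inside. In 200k and 1e6 cells the border lay at 367 kb and 567 kb, and only exon 9 was inside.

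MACROD2, which encodes an enzyme that removes mono-ADP-ribose from proteins, lies at chr20:13976015-16033842 on the plus strand. It was 100% inside in K562 and 98.8% in the TSA-seq list. In HCT116 it was 45.4% inside in bulk, 94% in 50k, 98.8% in 200k and 94% in 1e6, and among the sorted stages 90m G1 had 0%, 180m G1 had 24.3%, G1 had 89.1%, and S and G2 had 94% each. The border at its 5′ side stood 24 kb from the start in the 200k and TSA-seq lists, 124 kb in the 50k, 1e6, S and G2 lists, 224 kb in the 180m G1 and G1 lists and 1124 kb in bulk. In 180m G1 the call also ended 724 kb from the start. It held 48.6% of the bases 5′ of the midpoint and 0% of those 3′ of it, with the gene end outside. Calls on chromosome 20 as a whole covered 3.17% of it in 90m G1 and 9.2% in 180m G1, against 20.5% to 23.5% in the other 7 HCT116 lists, and the part of that difference in the MACROD2 values was not tested.

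The promoters of DLG2, WWOX and MACROD2 are shown because in most HCT116 lists the 5′ end of these genes was the part outside. They run from 250 bases before to 50 bases after the canonical start, CG in capitals, at chr11:85338339-85338638 on the minus strand, chr16:78133301-78133600 on the plus strand and chr20:13975912-13976211 on the plus strand.
DLG2 promoter: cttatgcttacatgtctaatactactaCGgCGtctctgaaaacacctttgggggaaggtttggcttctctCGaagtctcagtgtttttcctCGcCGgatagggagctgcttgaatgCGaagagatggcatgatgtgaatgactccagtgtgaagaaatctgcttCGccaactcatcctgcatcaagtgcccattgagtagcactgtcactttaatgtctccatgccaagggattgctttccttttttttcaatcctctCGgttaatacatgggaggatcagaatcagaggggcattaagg
WWOX promoter: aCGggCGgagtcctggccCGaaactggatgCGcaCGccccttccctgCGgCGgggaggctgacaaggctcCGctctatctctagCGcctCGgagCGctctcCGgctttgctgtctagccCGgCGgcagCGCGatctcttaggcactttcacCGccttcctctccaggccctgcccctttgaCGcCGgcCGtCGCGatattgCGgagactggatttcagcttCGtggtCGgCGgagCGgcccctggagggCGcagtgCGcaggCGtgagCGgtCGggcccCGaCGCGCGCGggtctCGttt
MACROD2 promoter: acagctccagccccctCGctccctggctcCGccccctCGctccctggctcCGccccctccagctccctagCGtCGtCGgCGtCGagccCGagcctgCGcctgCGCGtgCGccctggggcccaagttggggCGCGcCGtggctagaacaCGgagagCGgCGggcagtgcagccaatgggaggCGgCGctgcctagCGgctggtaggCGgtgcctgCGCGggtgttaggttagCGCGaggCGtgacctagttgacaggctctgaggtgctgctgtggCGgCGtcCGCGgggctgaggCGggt
They hold 8, 38 and 34 CG dinucleotides. As many CG or more were found in 78% of all promoters for DLG2, 14.8% for WWOX and 23% for MACROD2, so the genes with an outside 5′ end in HCT116 had both CG-poor and CG-rich starts. Among the genes without any HCT116 call the counts were 0 for NAALADL2, 4 for CTNNA3, 16 for LRP1B and 34 for PTPRG, and IMMP2L had 31.

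For the 9 genes, the end of the gene was inside more often than the start. In K562 the start was inside for 7 of 9 genes and the end for 9 of 9, where the long genes had 60.2% of starts and 58.3% of ends inside. In HCT116 bulk it was 1 start and 4 ends (45.1% and 45.7% of long genes). From 50000 cells it was 0 starts and 4 ends (41% and 35.8%), from 200000 cells 0 and 3 (41.7% and 33.6%), and from 1000000 cells 0 and 3 (38% and 32.7%). Of the sorted stages, 90m G1 had 1 start and 1 end inside (21.9% and 23.5%), 180m G1 had 1 and 4 (36.4% and 38.3%), G1 had 0 and 3 (38% and 33.3%), S had 1 and 3 (42% and 37.3%) and G2 had 0 and 4 (37% and 34.3%). Long genes as a class had starts and ends inside at shares within 10 percentage points of each other in every list, while the 9 genes had fewer starts than ends inside in 9 of the 10 per-condition lists. These lists share genes, cell lines and in part their borders, so they are not 9 separate observations. The 14 other fragile-site genes described further below had more starts than ends inside in every per-condition list except 90m G1. Of these 14, 13 starts and 9 ends were inside in K562, 9 and 8 in bulk, 9 and 4 in G1, and 5 and 7 in 90m G1.

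Over the 9 HCT116 lists the start was inside in 3 lists for WWOX, in 1 for IMMP2L and in none for the other 7 genes. The end was inside in 9 lists for WWOX, 7 for DLG2, 7 for MACROD2, 5 for FHIT and 1 for IMMP2L. A start outside with an end inside was found in K562 for CTNNA3 and DLG2, and for 13.6% of long genes. The opposite arrangement in K562, start inside and end outside, was found for 0 of the 9 and for 15.4% of long genes. In HCT116 G1 DLG2, WWOX and MACROD2 had the start outside and the end inside (8.95% of long genes), and 0 of the 9 had the reverse (13.6% of long genes). 

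The comparison of K562 cTSA-seq with K562 TSA-seq, a published data set that the authors put through the same calling, divided the genes differently. The published TSA-seq came from another laboratory and used a mouse monoclonal lamin-B antibody, where cTSA-seq used a rabbit lamin-B1 antibody. Method, antibody and laboratory cannot be told apart between these lists. The paper also made its own TSA-seq with the rabbit antibody. It reports that most cTSA-seq only regions were found again in that comparison. Whether those at the genes here are among them was not examined. At least 50% was inside in the TSA-seq list for 6 of the 9 genes, beside 9.64% of all genes and 54.6% of long genes. LRP1B and NAALADL2 were at 100% with both methods, DLG2 was at 89% with both, and MACROD2 (100% and 98.8%), CTNNA3 (87.9% and 93.3%) and IMMP2L (44.4% and 55.3%) had their 5′ borders 1 window of 100 kb apart. WWOX and PTPRG went from 100% with cTSA-seq to 0% with TSA-seq, as did 18.5% of long genes by the same rule of at least 50% against 0, and FHIT went from 46.8% to 0%. In the list of K562 regions called with cTSA-seq only, PTPRG and WWOX were at 100%, FHIT at 46.8% and IMMP2L at 0.286%, and the other 5 genes at 0%. That list had at least 50% of 2 of the 9 genes, 2.52% of all genes and 15.7% of long genes. It had 4 starts and 3 ends of the 9 inside (12% and 9.57% of long genes), and the TSA-seq list had 2 starts and 6 ends (47.5% and 47.5%). TSA-seq calls covered 10.3% of chromosome 16 and cTSA-seq calls 23.5%, a difference that moved with WWOX and whose part in it was not tested.

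HCT116 cells at 3 cell numbers gave calls in the same genes apart from FHIT, with borders that shifted. LRP1B, NAALADL2, CTNNA3, PTPRG and IMMP2L were at 0% at each number. WWOX was at 94%, 67.1% and 49.1% from 50000, 200000 and 1000000 cells, FHIT at 24.4%, 13.3% and 0%, DLG2 at 89%, 89% and 79.8%, and MACROD2 at 94%, 98.8% and 94%. The called genome was 706.2, 677.6 and 656.1 Mb at these numbers. In G1, with 624.9 Mb called, WWOX was at 94% and FHIT at 6.65%. In 180m G1, with 634.4 Mb called, WWOX was at 94% and FHIT at 84.2%. The part of the called genome in the lower values of WWOX and FHIT was not tested. The series holds 2 StrePD libraries each for 50000 and 200000 cells and 1 for 1000000 cells. The 1e6 list is labelled a consensus like the other 2, so how many libraries it rests on is not clear. If it rests on 1, the number of libraries cannot be told apart from the cell number for that list.

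Across the 5 sorted stages the 90m G1 list stood apart. WWOX was at 100% there and the other 8 genes at 0%, while 180m G1 had 5 genes above 0. Between 180m G1 and G1, FHIT and IMMP2L had at least 50% inside in 180m G1 and less in G1 (10.5% of long genes), and MACROD2 alone had the reverse (8.02% of long genes). From G1 to S to G2 the parts that stayed inside in all 3 lists were 94% of WWOX, 89.1% of MACROD2, 55.2% of DLG2, 6.65% of FHIT and none of the other 5 genes. The 90m G1 and 180m G1 cells came through a nocodazole arrest and the G1, S and G2 cells did not. Stage and arrest cannot be told apart between these sets. The lists of the arrested cells also lack the consensus label that the G1, S and G2 lists carry.

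**Figure D4:**
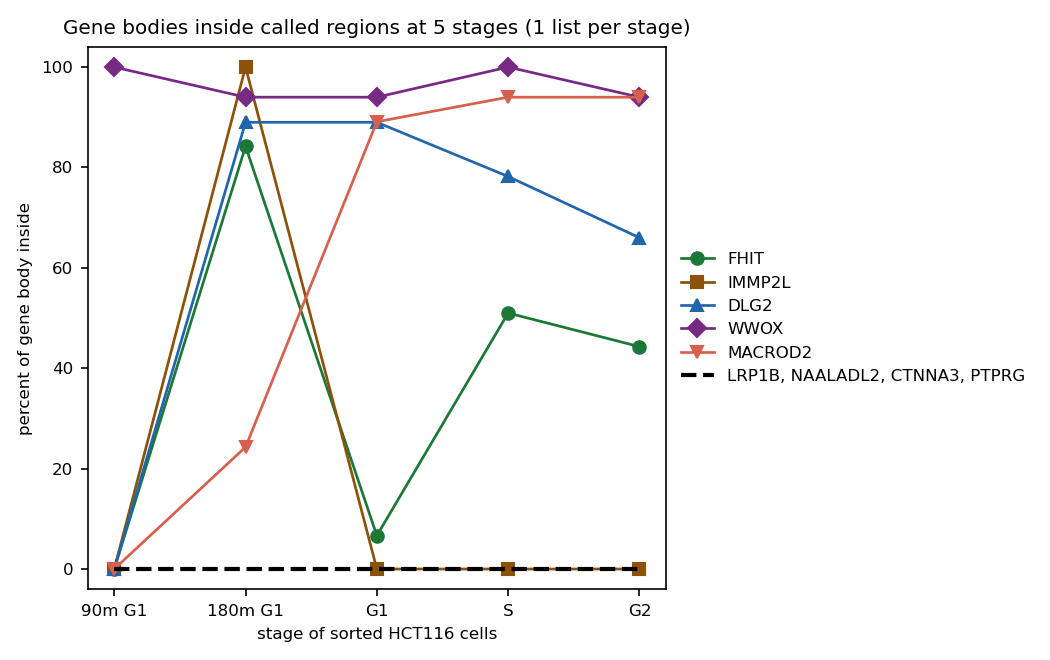
Percent of the gene body inside called regions (y axis) in HCT116 cells sorted at 5 stages (x axis), 1 point per gene and list, with no error because each stage has 1 list. FHIT and IMMP2L peak at 180m G1, MACROD2 is low at 180m G1 and between 89.1% and 94% from G1 on, WWOX stays between 94% and 100%, and 4 genes lie at 0 throughout.

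Protein-coding genes lay wholly within 3 of the hosts, and their values were those of the part of the host they are in. LRRTM3, a synaptic leucine-rich repeat protein read from the opposite strand of CTNNA3, was 100% inside in K562 and in the TSA-seq list and at 0% in HCT116. The short annotated gene ENSG00000289325 lies within LRRTM3 and had the same values. FLRT3, a leucine-rich repeat adhesion protein within MACROD2, lies 328 to 342 kb from the host start. It was 100% inside in K562, TSA-seq and 7 HCT116 lists and at 0% in bulk and 90m G1. LRRN3, a leucine-rich repeat protein of neurons, lies 437 to 472 kb into IMMP2L, between the TSA-seq border at 403 kb and the cTSA-seq border at 503 kb. It was therefore 100% inside in the TSA-seq list and at 0% in K562 cTSA-seq, and in HCT116 it was 100% inside in 180m G1 and at 0% in the other 8 lists. All 4 nested genes are on the strand opposite to their host.

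A further 14 genes known for fragile sites, chosen by name, were read in the same way. At least 50% was inside for 14 of 14 in K562 (70.1% of long genes and 11.7% of all genes), 10 in bulk (47.2% and 11.6%), 8 to 10 at the 3 cell numbers (41.7% to 46.6% and 5.23% to 6.36%), 6 at 90m G1 (23.5% and 17.4%) and 8 to 10 at the other 4 stages (41.4% to 46.6% and 4.87% to 5.8%). Their median percent inside in HCT116 G1 was 88.4, where that of the 9 genes was 0 and that of the 315 long genes outside the 9 was 0 as well. In the same order the medians were 96.4, 0 and 37.9 in bulk, 90.6, 0 and 38.2 in S, and 79.6, 24.3 and 6.06 in 180m G1. ESRRG, an orphan nuclear receptor, was at 100% in all 10 per-condition lists, and CNTNAP2, a neuronal adhesion protein, was at 94.9% to 100%. At the other end DPYD, which breaks down pyrimidines, and NBEA, a protein of membrane traffic, were at 100% in K562 and 0% in all 9 HCT116 lists, the pattern of LRP1B, NAALADL2 and PTPRG.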

How the data were processed

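Lamin-B1 cTSA-seq regions of K562 and HCT116 cells were used as deposited. Per the methods and labels, the authors aligned reads to hg19 with Bowtie2 2.3.2, removed duplicates, counted reads in 100 kb windows with bedtools 2.26.0, scaled the libraries, standardised the log2 ratio of StrePD to input, and assigned windows with a Hidden Markov Model of 3 states. Each deposited entry gives where a region begins and ends, in bp, and without any signal, ratio or read count the depth behind a call is unknown. Per the methods, calls of replicates were intersected. In the 50k list, 1 region outside chromosomes 1 to 22, X and Y was left out.

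Gene bodies were taken from GENCODE release 44 on GRCh37 (hg19). The percent inside is the share of gene body bases in a region, and the start or end was inside when its base was. Borders were counted in 11 lists, without the cTSA-seq only list. Calculations used Python 3.11.15 and numpy 2.4.6, and interval code was tested on simulated regions. All 9 genes, the protein-coding genes nested in them, the most alike long gene of each and 2 genes each from the top and bottom of 14 other fragile-site genes by mean percent are named, except that some of these are not reported here. The genes and lists were chosen with earlier results of these data known. Alternatives were other shares, region lengths, joined gaps, extended gene bodies, the longest transcript and borders within 100 kb. Mouse, RPE1 and SLAM-seq samples and the authors' own TSA-seq libraries were not used here.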

Additional observations from a re-analysis of the deposited data

How the results depend on the processing

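Of 144 recomputed counts of genes, 135 stayed within 1.5 times the reported count and 9 moved. With 30% of the gene body in place of 50%, the HCT116 bulk count was 4. Within the tolerance, the K562 count went from 7 to 9 with 30%, and also to 9 with gene bodies extended by 100 kb on both sides. With 80%, the count was 1 in the 1e6 list and 2 in the S list. Where a start within 100 kb of a region counted as inside, starts inside numbered 2 in bulk, 1 in 50k, 1 in 200k, 2 in 180m G1, 1 in G1 and 1 in G2, the added start being that of DLG2 in bulk, MACROD2 in 200k and WWOX in the other 4 lists. Of 432 recomputed percents, 431 kept their value within the tolerance, and FHIT in G1 went from 6.65% to 0% with regions of at least 200 kb only. Joining gaps of up to 100 kb changed none of the 36 counts or 108 percents.

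The lists carry no replicate values, so no library was left out, and no p-value or interval was computed. Calls depend on the state model of each list, on copy number and on mappability in cancer lines, whose part was not tested.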

Other observations

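The genes other than WWOX were each set beside the most similar of the 315 other long genes, by the mean absolute difference in percent inside over the 10 per-condition lists. LRP1B, NAALADL2 and PTPRG shared their values exactly (0 percentage points) with ANK2, which encodes ankyrin-B, and 33 genes tied at that distance. CTNNA3 was nearest to THSD4 (0.104 points), which was 89% inside in K562 and at 0% in HCT116. IMMP2L was nearest to ULK4 (4.33 points), a gene 99.5% inside in 180m G1, 15.6% in bulk and 0% in the other 7 HCT116 lists. DLG2 was nearest to EYS (7.94 points), which was at 0% in 90m G1 and 91.4% to 96.5% in the other 9 lists. MACROD2 was nearest to PTPRT (9.5 points), a receptor-type phosphatase gene also on chromosome 20, which was 26.9% inside in 180m G1, 0% in 90m G1 and 100% in the other 7 HCT116 lists. FHIT had the most distant partner, PLCL1 (14.1 points), which was 96% inside in 180m G1 and 0% in G1. These are descriptions of 10 lists, some of which share cultures and a cell line, and carry no test.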
